A study of Mus musculus with 72 samples.

Results

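Transcripts of 9 genes that make, remove, export and sense sphingosine-1-phosphate (S1P) were followed in mouse early secondary ovarian follicles cultured for 24 h, some of them with follicle-stimulating hormone (FSH). The genes were the S1P phosphatases Sgpp1 and Sgpp2, the sphingosine kinases Sphk1 and Sphk2, the S1P lyase Sgpl1, the exporter Spns2 and the receptors S1pr1, S1pr2 and S1pr3. They were 9 of the 56691 genes listed, found by their symbols, and all 9 passed the filter on low counts. The set was chosen by function and selected on earlier results of these same libraries, among them the fold changes of FSH over no FSH, so for those comparisons its values are given as a description with no p-value.

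S1P is a signalling lipid made by phosphorylating sphingosine, which is itself released from ceramide. Sphingosine kinases form it, S1P phosphatases of the endoplasmic reticulum turn it back into sphingosine, and S1P lyase breaks it down for good. Spns2 carries it out of the cell, where it acts on G protein-coupled receptors, and in the ovary S1P has been studied as a survival signal for oocytes.

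FSH acts through its receptor on granulosa cells and raises cyclic AMP in them. Follicles received FSH21, the hypoglycosylated form of the hormone, or FSH24, the fully glycosylated form, each at 10 or 1 ng/ml, and untreated follicles received neither. RNA of whole follicles was sequenced in 18 libraries, 3 for each of 6 groups, and every library had been run on 4 lanes. The 10 ng/ml groups carry library numbers 2, 3 and 4 and were set against the untreated libraries of those numbers. The 1 ng/ml groups carry numbers 1, 5 and 6 and were set against the other untreated libraries. Dose and number set cannot be told apart in treated libraries, and at each dose both forms share their 3 untreated libraries. The medium of all groups held α-MEM with GlutaMAX, serum albumin, fetuin and insulin-transferrin-selenium. The sources used here give neither mouse strain nor age, nor say that replicates came from separate animals or cultures, so p-values reflect only how far these libraries spread, which may be technical.

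The libraries held 17.5 M to 22.5 M counts each (M, mega; median 21.4 M), and 18727 genes were tested. Levels are in CPM, the count of a gene per mega-count of its library after TMM scaling. A gene was called where its adjusted p in edgeR's quasi-likelihood test, over all genes tested, was under 0.05. Summed markers of oocytes lay between 1950 and 2450 CPM and those of granulosa cells between 3490 and 5530 CPM in the 18 libraries, so the labelled tissue had its defining transcripts. Theca markers summed to 1160 to 2100 CPM and endothelial markers to 66.3 to 101 CPM. Stroma and smooth muscle markers summed to 1570 to 2670 CPM, a range that overlapped that of the oocyte markers. Surface epithelium markers summed to 29.8 to 75.5 CPM. Immune markers summed to 0.825 to 2.32 CPM and red blood cell markers to 0 to 0.144 CPM. In whole follicles, fewer cells of a type and less RNA per cell cannot be told apart.

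Promoters of the pair of genes that differed most with FSH, Sgpp2 and Spns2, are shown first, because cyclic AMP is known to act on genes through a response element with the letters TGACGTCA. The sequences are RefSeq's for build GRCm38.p6, each with 250 bases before and 50 bases after a transcript start, printed 5′ to 3′ on the gene's strand. Capitals mark TGACG, the first letters of that element.
Sgpp2 promoter, chr1:78310096-78310395, plus strand: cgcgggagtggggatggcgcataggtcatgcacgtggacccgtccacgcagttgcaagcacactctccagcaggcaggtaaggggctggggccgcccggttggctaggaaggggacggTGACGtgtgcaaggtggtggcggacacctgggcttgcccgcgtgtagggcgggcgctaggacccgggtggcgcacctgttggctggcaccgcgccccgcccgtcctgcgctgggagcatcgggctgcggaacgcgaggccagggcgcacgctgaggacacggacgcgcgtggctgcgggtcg
Spns2 promoter, chr11:72474978-72475277, minus strand: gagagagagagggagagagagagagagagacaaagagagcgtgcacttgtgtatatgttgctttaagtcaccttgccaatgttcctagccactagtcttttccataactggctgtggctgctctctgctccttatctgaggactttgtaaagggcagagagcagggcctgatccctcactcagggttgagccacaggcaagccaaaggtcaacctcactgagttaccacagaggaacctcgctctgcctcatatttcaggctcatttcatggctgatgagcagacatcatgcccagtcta
The Sgpp2 window held TGACG 1 time, at base 119 of the window, and the Spns2 window did not hold it. On either strand TGACG was in 20.8% of 32851 promoter windows of the same length and TGACGTCA in 1.79%. TGACGTCA reads the same on both strands and holds TGACG on each. It was found in no window of Sgpp2 or Spns2 but in windows of Sphk2 and S1pr2, shown here with 11 bases on each side in capitals for the element only.
Sphk2 site, chr7:45717981-45718010, minus strand: tggtgcacgggTGACGTCAcatgagcgcga
S1pr2 site, chr9:20976956-20976985, minus strand: taagagagctgTGACGTCAcgcggccgtga
TGTTTAC, a forkhead motif in 3.65% of windows, and CAAGGTCA, a motif of the nuclear receptor NR5A1 in 1.56%, were in none of the 13 windows that the table holds for 8 of the 9 genes. The table holds no window for S1pr1. The Spns2 window stands at a RefSeq start inside the GENCODE gene, and a match or its lack is a description of these letters only.

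In untreated follicles the transcripts of S1P breakdown and of Sphk2 were the most abundant per length, and those of the exporter the least. Levels divided by kilobases of exon, as medians over the 6 untreated libraries, were 16.6 CPM per kb for Sgpl1 (15.6 to 17.5) and 16.5 CPM per kb for Sphk2 (14.8 to 16.9). Sgpp1 followed at 7.65 CPM per kb (7.27 to 8.11) and Sgpp2 at 5.75 CPM per kb (5.32 to 8.22). These 2 pairs of neighbours each overlapped in range. Among receptors, S1pr3 stood at 3.85 CPM per kb (3.43 to 4.58) and S1pr2 at 3.41 CPM per kb (2.99 to 3.89), again with overlap. Without division by length S1pr2 was above S1pr3, at means of 27.3 and 17.5 CPM over the 6 untreated libraries. The length used is that of all annotated exons of a gene, not of the transcripts present. S1pr1 at 1.1 CPM per kb (0.883 to 1.37) overlapped Sphk1 at 1.08 CPM per kb (0.735 to 1.28). Spns2 was below every other member at 0.366 CPM per kb (0.269 to 0.48). The ranges of Sphk2 and Sgpp1, Sgpp2 and S1pr3, S1pr2 and S1pr1, and Sphk1 and Spns2 did not overlap. The receptors S1pr4 and S1pr5 were below the filter, with at most 2 counts in any library and 0 in 14 and 11 of the 18 libraries.

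**Figure D1:**
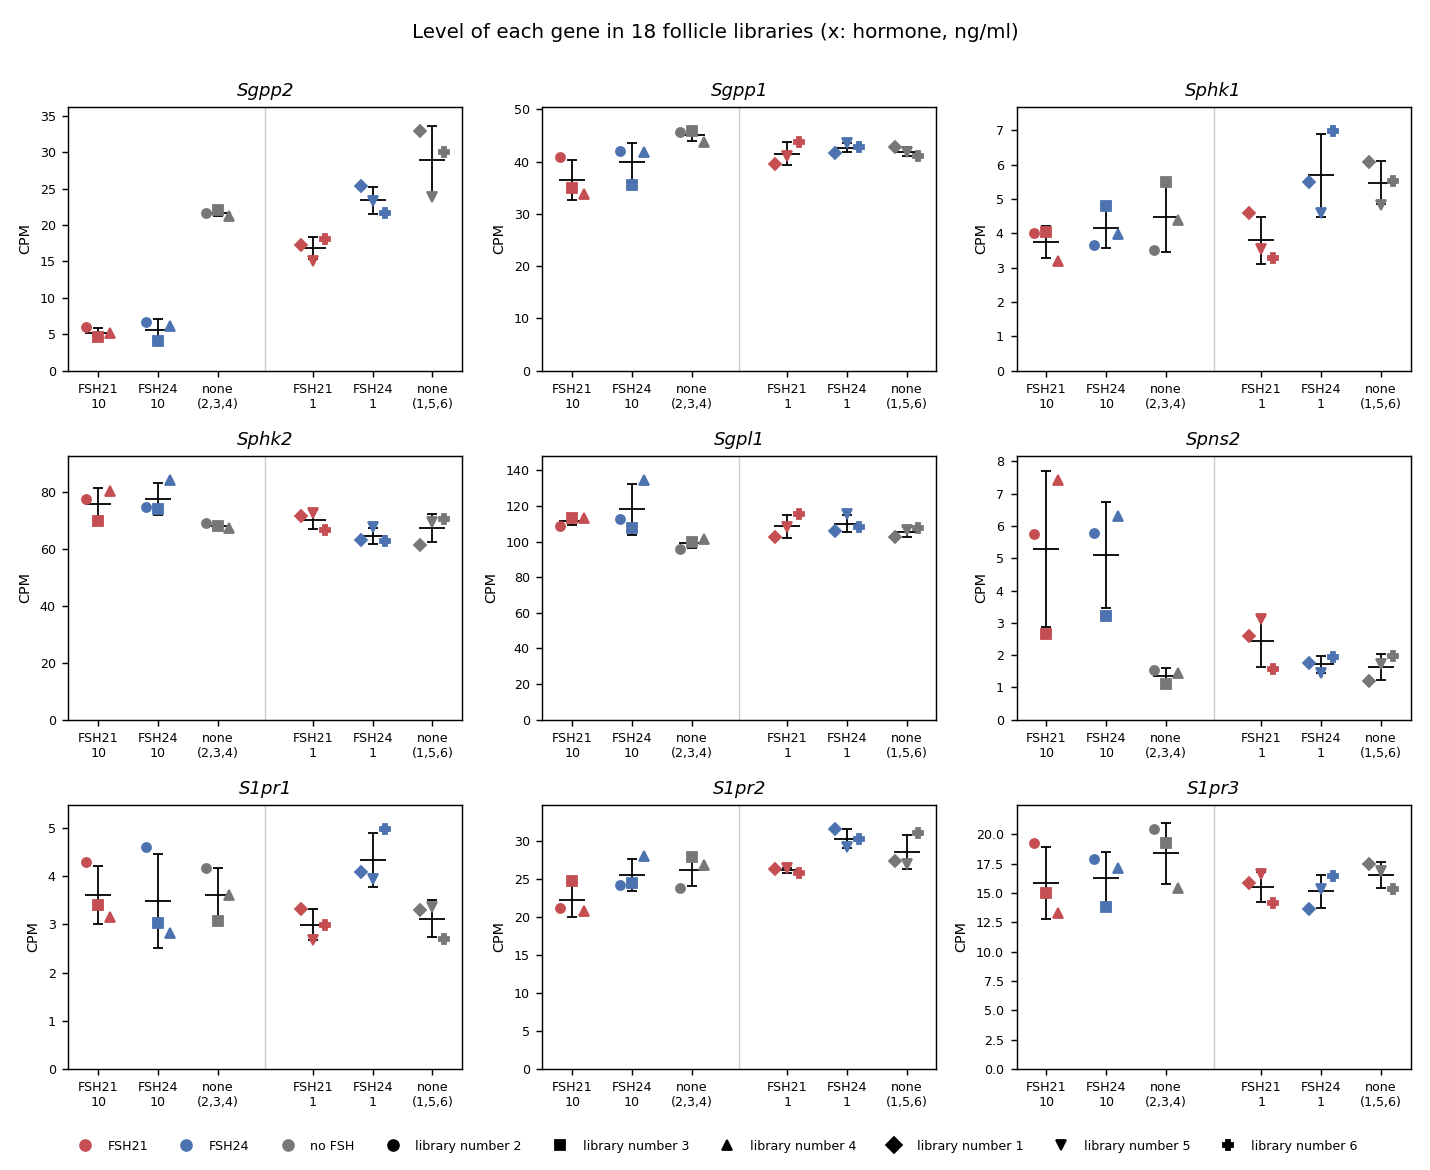
CPM of each of the 9 genes in every library, with linear axes from 0, points for libraries (shape gives the library number, colour the hormone) and bars for the group mean and SD (n = 3). With 10 ng/ml of either form Sgpp2 lies at or below 6.7 CPM, against at least 21.3 CPM in untreated libraries, and Spns2 lies at or above 2.66 CPM, against at most 1.54 CPM in the untreated libraries of numbers 2, 3 and 4.

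Sgpp2, one of the pair of S1P phosphatases, stood at 0.241 times its untreated level with 10 ng/ml FSH21 and at 0.261 times with 10 ng/ml FSH24. Spns2, the exporter, stood at 3.85 and 3.73 times its untreated level with FSH21 and FSH24. Sgpp1 and Sgpl1 differed by much less, and no receptor or kinase was called. With 10 ng/ml FSH21, 3 of 9 members were called, Sgpp2 and Sgpp1 lower and Spns2 higher, where 10.2% of all genes tested were called. With 10 ng/ml FSH24, 3 of 9 were called, Sgpp2 lower and Spns2 and Sgpl1 higher, where 8.42% of all genes were. With each form the treated and untreated libraries did not overlap for 5 of 9 members, Sgpp1, Sgpp2, Sphk2, Sgpl1 and Spns2, where 27.7% of all genes did not overlap for FSH21 and 24.5% for FSH24. The members were picked with these contrasts known, so nothing is read from the counts.

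Sgpp2 (ENSMUSG00000032908, chromosome 1, 78310345 to 78420289, plus strand, GRCm38) stood at 5.97, 4.64 and 5.12 CPM in libraries 2, 3 and 4 with 10 ng/ml FSH21. It stood at 6.7, 4.06 and 6.21 CPM with 10 ng/ml FSH24, against 21.7, 22.1 and 21.3 CPM in the untreated libraries. All 6 treated libraries were far below all untreated ones, and the untreated libraries differed little among themselves. The log2 fold change was −2.05 (SE 0.16) with FSH21 and −1.94 (SE 0.16) with FSH24, the 85th and 92nd lowest of 18727 genes. Taken library by library of the same number, the treated level was 21% to 27.5% of the untreated one with FSH21 and 18.4% to 30.9% with FSH24. Per length, Sgpp2 was at 1.31 ± 0.169 CPM per kb with FSH21 and 1.41 ± 0.351 CPM per kb with FSH24, against 5.42 ± 0.0997 CPM per kb without FSH (SD, n = 3 each).

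With the lower dose, 1 ng/ml, Sgpp2 stood at 17.3, 15.1 and 18 CPM in libraries 1, 5 and 6 with FSH21 and at 25.4, 23.3 and 21.7 CPM with FSH24, against 32.9, 23.9 and 30 CPM in the untreated libraries. The FSH21 libraries were below all 6 untreated libraries of the study, whereas the FSH24 libraries overlapped their controls. Its log2 fold change was −0.78 (SE 0.14) with FSH21 and −0.31 (SE 0.14) with FSH24, 484th and 1778th lowest of the genes tested. Sgpp2 was the 1 member of 9 called with 1 ng/ml FSH21, where 0.128% of all genes were called. That call was lost when any of the 3 FSH21 libraries, or untreated library 1 or 6, was left out, and when only the compared groups were fitted. With 1 ng/ml FSH24, 0 of 9 members and 0% of all genes were called by edgeR, with 1119 genes at an unadjusted p under 0.05 and 1 gene called by DESeq2. Libraries did not overlap for 3 members with FSH21 (Sgpp2, Sphk1 and S1pr2, all lower; 13% of all genes) and for 1 with FSH24 (S1pr1, higher; 10.3% of all genes).

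Untreated Sgpp2 was itself lower in the untreated libraries of numbers 2, 3 and 4, at 21.7 ± 0.399 CPM, than in those of numbers 1, 5 and 6, at 28.9 ± 4.6 CPM (SD, n = 3 each). The log2 difference was −0.41 (SE 0.14), with edgeR's unadjusted p = 0.009124 and adjusted p = 0.9007, and the 2 sets did not overlap. These untreated libraries also entered the fold changes known when the genes were chosen, so this p-value is no independent test. In that comparison 0 of 9 members and 0% of all genes were called by edgeR, with 1020 genes at an unadjusted p under 0.05 and 1 called by DESeq2. The sets did not overlap for 3 members (Sgpp2 and Sgpl1 lower, Sgpp1 higher) and for 11% of all genes. Sgpp2 stood further below its own controls at 10 ng/ml than at 1 ng/ml. The log2 difference between the doses was −1.27 (SE 0.21) for FSH21 and −1.63 (SE 0.21) for FSH24. Dose and number set cannot be told apart in it.

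Sgpp1 (chromosome 12, 75714249 to 75735729, minus strand), the other phosphatase, moved less. It stood at 40.9, 34.9 and 33.8 CPM with 10 ng/ml FSH21 and at 42.1, 35.6 and 41.8 CPM with 10 ng/ml FSH24, against 45.6, 45.8 and 43.7 CPM without FSH. All treated libraries lay below all untreated ones. Its log2 fold change was −0.30 (SE 0.08) with FSH21, a call that was lost without FSH21 library 3 or 4, and −0.18 (SE 0.08) with FSH24, which was not called. At 1 ng/ml the log2 fold changes were −0.01 (SE 0.08) and 0.03 (SE 0.08) for FSH21 and FSH24.

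The make-up of the phosphatase pair differed between groups. Sgpp2 made up 16.8% ± 0.96 of the phosphatase transcripts per length with 10 ng/ml FSH21 and 16.5% ± 2.35 with 10 ng/ml FSH24, against 40.5% ± 0.279 in untreated follicles (SD, n = 3 each). At 1 ng/ml the share was 36.3% ± 2.04 with FSH21 and 43.6% ± 2.3 with FSH24, against 49.1% ± 3.98 (SD, n = 3 each). Their summed level was 7.77 ± 0.825 and 8.46 ± 0.997 CPM per kb with 10 ng/ml FSH21 and FSH24, against 13.4 ± 0.303 CPM per kb (SD, n = 3 each), with no overlap between treated and untreated libraries. For the kinases the sum was 19 ± 1.26 and 19.5 ± 1.33 CPM per kb with FSH21 and FSH24, against 17.3 ± 0.236 CPM per kb, a range of 17.6 to 21.1 in treated libraries against 17.1 to 17.5 in untreated ones. The summed S1pr1, S1pr2 and S1pr3 level overlapped, at 6.63 to 8.56 CPM per kb in treated libraries against 8.01 to 8.94 CPM per kb in untreated ones.

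**Figure D2:**
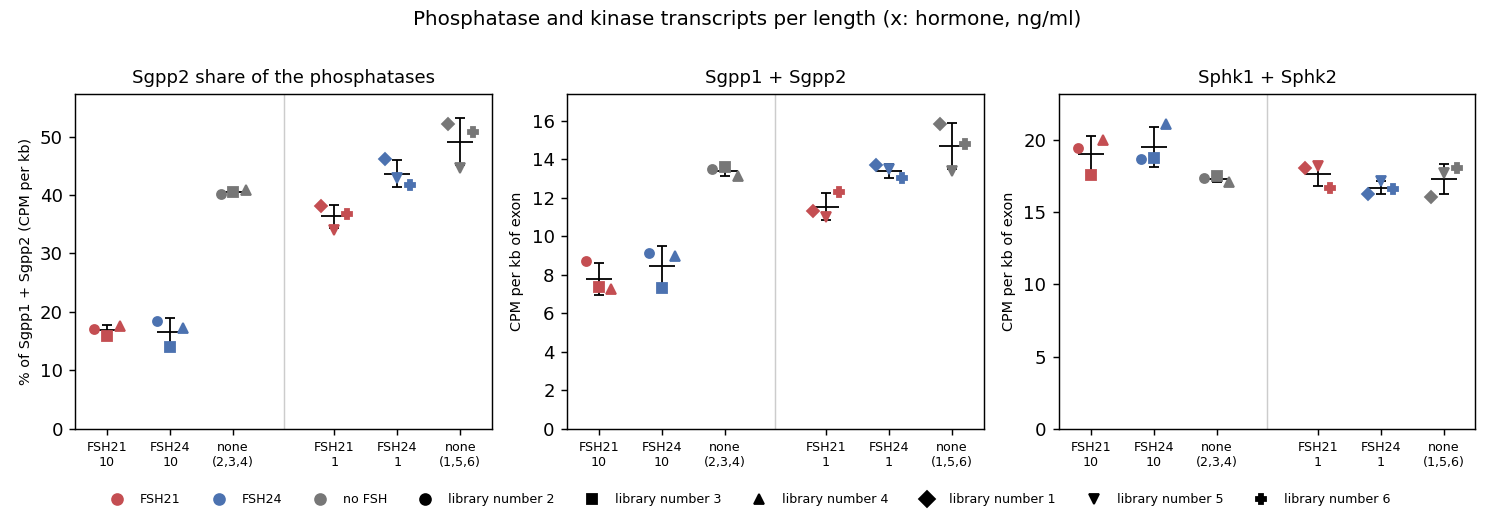
Share of Sgpp2 in the phosphatase transcripts (percent), and summed phosphatase and kinase levels (CPM per kb of exon), by library, with group mean and SD (n = 3) as bars and library number as point shape. The Sgpp2 share lies between 13.9% and 18.4% in the 6 libraries with 10 ng/ml FSH, against 40.2% to 40.8% in their untreated libraries. The kinase sum lies between 17.6 and 21.1 CPM per kb with 10 ng/ml FSH, against 17.1 to 17.5 CPM per kb in those untreated libraries. Over all 18 libraries it lies between 16.1 and 21.1 CPM per kb.

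Spns2 (ENSMUSG00000040447, chromosome 11, 72451638 to 72489904, minus strand), the S1P exporter, stood at 5.75, 2.66 and 7.42 CPM with 10 ng/ml FSH21 in libraries 2, 3 and 4. With 10 ng/ml FSH24 it stood at 5.8, 3.22 and 6.3 CPM, against 1.54, 1.1 and 1.45 CPM in untreated libraries. Every treated library was above every untreated one, and library 3 was the lowest of its group in all 3 groups. The log2 fold change was 1.95 (SE 0.36) with FSH21 and 1.90 (SE 0.36) with FSH24, the 137th and 96th highest of 18727 genes. Between libraries of the same number the ratio to untreated was 2.42 to 5.13 for FSH21 and 2.93 to 4.35 for FSH24. These levels rest on few reads: the 3 libraries held 316 counts with FSH21 and 321 counts with FSH24, against 89 counts without FSH.

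With 1 ng/ml Spns2 stood at 2.59, 3.13 and 1.57 CPM with FSH21 and at 1.76, 1.44 and 1.96 CPM with FSH24, against 1.2, 1.73 and 1.96 CPM without FSH. Both groups overlapped their controls, with log2 fold changes of 0.57 (SE 0.36) and 0.07 (SE 0.37) for FSH21 and FSH24. The effect at 10 ng/ml exceeded that at 1 ng/ml by 1.37 (SE 0.51) for FSH21 and 1.83 (SE 0.52) for FSH24 on the log2 scale. Here too dose and number set cannot be told apart.

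**Figure D3:**
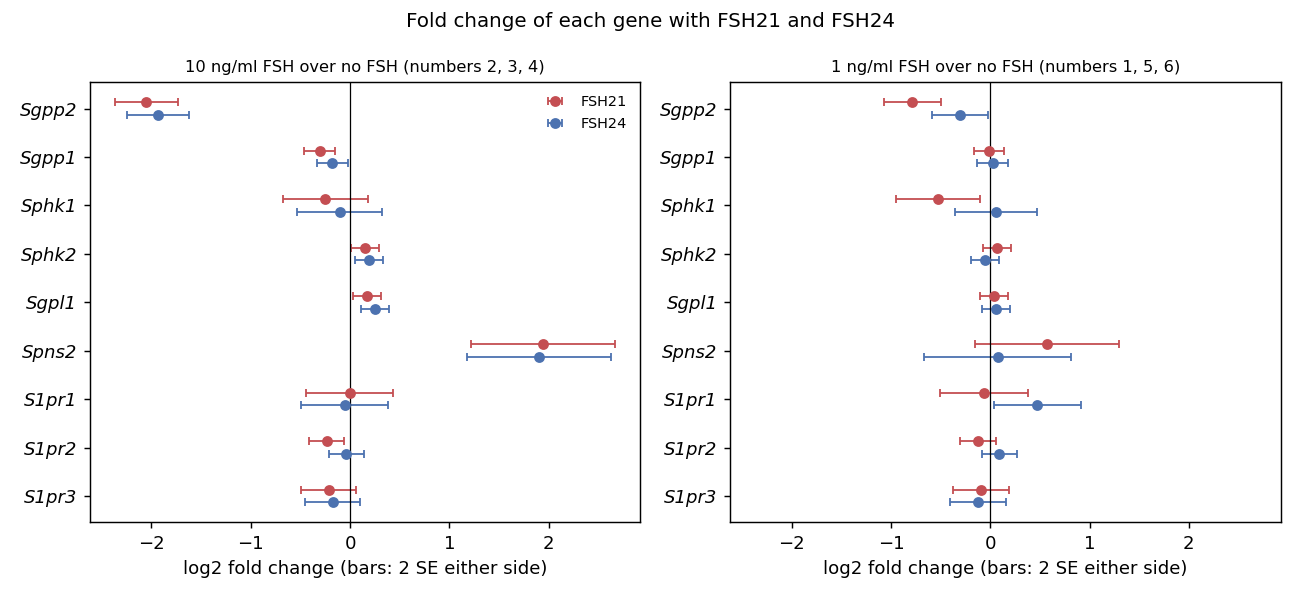
Log2 fold change of each gene with FSH21 (red) and FSH24 (blue) over untreated follicles of the same library numbers, at 10 ng/ml (left) and 1 ng/ml (right), with bars of 2 SE either side. At 10 ng/ml Sgpp2 is near −2 and Spns2 near 2 with both forms, while the other 7 genes lie between −0.30 and 0.25.

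Sgpl1 (chromosome 10, 61098642 to 61147703, minus strand), the lyase, stood at 109, 113 and 113 CPM with 10 ng/ml FSH21 and at 112, 107 and 135 CPM with 10 ng/ml FSH24, against 96.1, 100 and 102 CPM without FSH. Treated libraries were all above untreated ones, and FSH24 library 4 was the highest. The log2 fold change was 0.17 (SE 0.07) with FSH21 and 0.25 (SE 0.07) with FSH24. The FSH24 call was lost without FSH24 library 4, without any single untreated library, and when only the compared groups were fitted. Sgpl1 at 1 ng/ml lay between 102 and 115 CPM in treated libraries, against 102 to 108 CPM in untreated ones.

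Sphk2 (chromosome 7, 45709467 to 45718002, minus strand), the nuclear and mitochondrial kinase, was at 77.4, 69.6 and 80.3 CPM with 10 ng/ml FSH21 and at 74.7, 73.9 and 84.1 CPM with 10 ng/ml FSH24, against 69.1, 68.1 and 67.1 CPM without FSH. Treated libraries lay above untreated ones, the lowest by less than 1 CPM. Its log2 fold changes of 0.15 (SE 0.07) and 0.19 (SE 0.07) for FSH21 and FSH24 were not called. Sphk1 (chromosome 11, 116530925 to 116536674, plus strand), the cytosolic kinase, had 3.21 to 4.04 CPM with 10 ng/ml FSH21 and 3.66 to 4.8 CPM with 10 ng/ml FSH24, against 3.51 to 5.5 CPM without FSH, and these overlapped. With 1 ng/ml Sphk1 had 4.58, 3.53 and 3.28 CPM with FSH21 and 5.49, 4.6 and 6.98 CPM with FSH24, against 6.09, 4.83 and 5.52 CPM without FSH. All 3 FSH21 libraries were below the other 6, with a log2 fold change against untreated of −0.53 (SE 0.21) that was not called.

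No receptor was called in any comparison with untreated follicles. S1pr2 (chromosome 9, 20962361 to 20976781, minus strand), a receptor that couples to several G proteins, was at 20.8 to 24.7 CPM with 10 ng/ml FSH21 and 24.1 to 27.9 CPM with 10 ng/ml FSH24, against 23.8 to 27.9 CPM without FSH. Its log2 fold change with FSH21, −0.24 (SE 0.09), was called only where FSH21 library 3 was left out. S1pr1 (chromosome 3, 115710433 to 115715072, minus strand), a receptor abundant in endothelium that couples to inhibitory G proteins, ranged from 2.67 to 4.98 CPM over all 18 libraries. Its highest group was 1 ng/ml FSH24 at 4.09, 3.95 and 4.98 CPM, against 3.31, 3.37 and 2.69 CPM without FSH, a log2 fold change of 0.47 (SE 0.22). In that group Upk3b, a marker of surface epithelium, ranged from 0.259 to 19.5 CPM, and the part of such cells in the S1pr1 level was not tested. S1pr3 (chromosome 13, 51408639 to 51422797, plus strand) ranged from 13.3 to 20.4 CPM, overlapped its controls in each treated group, and had log2 fold changes between −0.22 and −0.09.

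FSH21 and FSH24 were then compared with each other at equal dose. Each such contrast is the difference of 2 fold changes over the same untreated libraries, and those were known when the genes were chosen. The p-values of members given here are therefore no independent test. At 10 ng/ml 0 of 9 members and 0% of all genes were called by edgeR, with 410 genes at an unadjusted p under 0.05 and 5 called by DESeq2. No member's groups were without overlap, where 7.1% of all genes were. Sgpp2 differed by a log2 of −0.12 (interval of 2 SE either side −0.45 to 0.22) and Spns2 by 0.05 (−0.63 to 0.72), with an adjusted p of 1 in edgeR's test for both. The intervals do not show that the forms act alike on either gene. S1pr2 was lower with FSH21 by a log2 of −0.20 (−0.38 to −0.02), with an unadjusted p = 0.03913 and an adjusted p of 1 in edgeR's test.

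At 1 ng/ml 0 of 9 members were called, where 0.0107% of all genes were, 2 genes in number. In edgeR's test 1770 genes, or 9.45%, had an unadjusted p under 0.05, and DESeq2 called 204 genes, none of them a member. Sgpp2, Sphk1, S1pr1 and S1pr2, 4 of the 9, had an unadjusted p under 0.05, all lower with FSH21, and for the same 4 the 3 FSH21 libraries lay below the 3 FSH24 libraries, as 14.9% of all genes did in one direction or the other. Sgpp2 averaged 16.8 ± 1.54 CPM with FSH21 and 23.4 ± 1.85 CPM with FSH24 (SD, n = 3 each). Its log2 difference was −0.48 (SE 0.14), lower in 3 of 3 library numbers, with an adjusted p = 0.2675 in edgeR's test and 0.05888 to 0.689 over the alternatives. Sphk1 differed by −0.58 (SE 0.21, adjusted p = 0.3943 in edgeR's test) and S1pr1 by −0.54 (SE 0.22, adjusted p = 0.4493). S1pr2 averaged 26.1 ± 0.342 CPM with FSH21 and 30.3 ± 1.21 CPM with FSH24 (SD, n = 3 each), a log2 difference of −0.21 (SE 0.09) with an adjusted p = 0.4579 in edgeR's test. None of these passed the threshold, and the difference between the doses in this contrast was not tested. The surface epithelium marker Upk3b ranged from 0.259 to 19.5 CPM among the 3 FSH24 libraries, and its bearing on these differences was not tested.

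**Figure D4:**
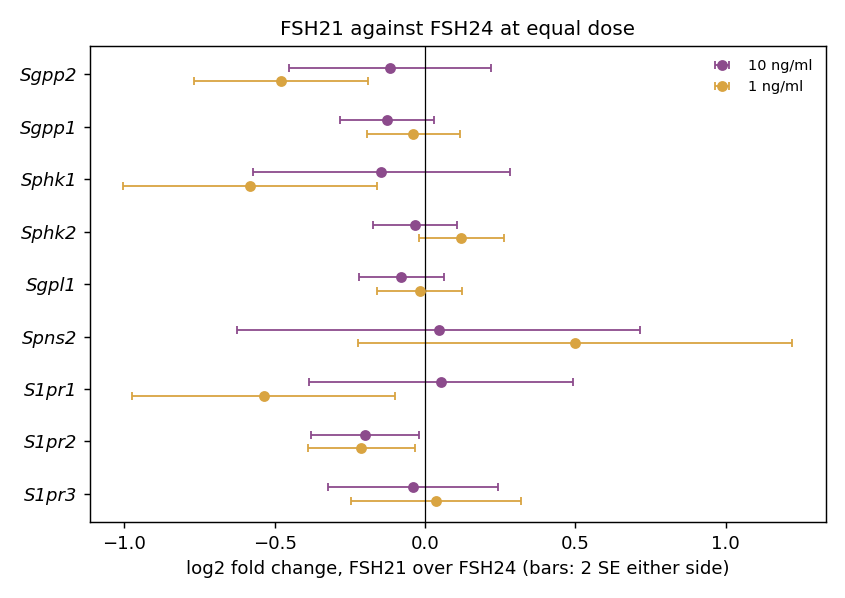
Log2 fold change of FSH21 over FSH24 for each gene at 10 ng/ml (purple) and 1 ng/ml (yellow), with bars of 2 SE either side. At 1 ng/ml the bars of Sgpp2, Sphk1, S1pr1 and S1pr2 lie wholly below 0, and at 10 ng/ml that of S1pr2 does, but no adjusted p was under 0.05.

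Of 51 further genes of ceramide, sphingomyelin and S1P metabolism and S1P receptor signalling, 45 were tested. At 10 ng/ml 4 of 45 rose and 0 fell with FSH21, where 10.2% of all genes tested were called in either direction, and 4 rose and 0 fell with FSH24, where 8.42% were. These shares lay near those over all genes. The median log2 fold change of the 45 was 0.01 with FSH21 and 0.03 with FSH24, against 0 over all genes tested for both. Cerk, the ceramide kinase, had the lowest adjusted p of them in both comparisons. It averaged 49.5 ± 2.11 CPM with FSH21 and 46.4 ± 3.21 CPM with FSH24, against 29.6 ± 1.23 CPM without FSH (SD, n = 3 each), with log2 fold changes of 0.74 (adjusted p = 6.593e-07 in edgeR's test) and 0.65 (adjusted p = 5.504e-06). B4galt5, a lactosylceramide synthase, rose by 0.48 with FSH21 (adjusted p = 0.000679 in edgeR's test) and by 0.36 with FSH24 (adjusted p = 0.009593).

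Gnai3, an inhibitory G protein alpha subunit through which S1P receptors can signal, rose by a log2 of 0.38 with FSH21 (adjusted p = 0.0003375 in edgeR's test) and 0.25 with FSH24 (adjusted p = 0.01076). Its FSH24 call was lost without FSH24 library 2 or untreated library 3 or 4, and with only the compared groups fitted (adjusted p = 0.0992 in edgeR's test). It was kept with RLE size factors, no filter, the replicate block and DESeq2. Gnai2, another such subunit, rose by 0.20 with FSH24 (adjusted p = 0.02794 in edgeR's test) and was at 0.16 (adjusted p = 0.07851) with FSH21. In the FSH21 comparison it was called with the replicate number as a block, the paired fit that the numbers allow there (adjusted p = 0.03584 in edgeR's test), and in DESeq2 (adjusted p = 0.03289). The Gnai2 call with FSH24 was lost without FSH24 library 2 or 4 or untreated library 3 or 4. It was also lost with no filter and with only the compared groups fitted (adjusted p = 0.1128 and 0.1735 in edgeR's test). RLE size factors, the replicate block and DESeq2 kept it. Aldh3a2, the dehydrogenase that handles the aldehyde left by S1P lyase, rose by 0.31 with FSH21 (adjusted p = 0.04914 in edgeR's test), a call lost in all but 1 of the 6 fits that left out a library. That call was also lost with RLE size factors, no filter and only the compared groups fitted (adjusted p = 0.06005, 0.06955 and 0.07989 in edgeR's test). The replicate block and DESeq2 kept it. With FSH24 Aldh3a2 was at 0.19 (adjusted p = 0.2831 in edgeR's test). In edgeR's test over all 18 libraries no call was made among the 15 tested genes of ceramide synthesis, the 4 ceramidases and the 7 genes of sphingomyelin turnover. Other fits called some of them. The ceramidase Acer3, at −0.36 with FSH24, passed in the fit with a replicate block (adjusted p = 0.01982 in edgeR's test) and in DESeq2 (adjusted p = 0.03815). With FSH21, the ceramidase Asah1 was called in DESeq2 (adjusted p = 0.04757), and Sptlc2 of ceramide synthesis and the sphingomyelin synthase Sgms2 were called with only the compared groups fitted (adjusted p = 0.04996 and 0.0334 in edgeR's test). In the 1 ng/ml comparisons and between the forms 0 of 45 were called.

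Over the 18 libraries, the genes whose log2 CPM followed Sgpp2 most closely were Adamts2 (Pearson r = 0.983), Kcnq5 (0.98), Mapk10 (0.977), Spsb1 (0.977) and Me3 (0.976). Kcnq5, a potassium channel subunit, averaged 5.49 and 7.63 CPM with 10 ng/ml FSH21 and FSH24, against 26.9 CPM without FSH, and 19.5 and 26.6 CPM with 1 ng/ml FSH21 and FSH24, against 33 CPM. Adamts2, a procollagen protease, averaged 159 and 174 CPM with 10 ng/ml FSH21 and FSH24, against 323 CPM. Among the 9 members, Sgpp2 had r = −0.825 with Spns2, and Spns2 had r = 0.866 with Sphk2. Most of the spread behind these values lies between groups, and the libraries are shared by all genes, so they are descriptions only.

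Transcripts of neighbouring genes and of other cell types moved beside these results. No source used here says whether counting used strand, so it is not known whether reads of genes that overlap on opposite strands were told apart. Deposited counts of Spns2 were whole in every library, while those of Sgpp2 were not all whole. What this says of shared reads was not tested. Farsb on the other strand shares 6.2% of the exon bases of Sgpp2, and its log2 fold change with 10 ng/ml was −0.24 (SE 0.07) for FSH21, a call, and −0.22 (SE 0.07) for FSH24, not a call. Mybbp1a shares 3.21% of those of Spns2 and was called lower, with log2 fold changes of −0.40 (SE 0.08) and −0.37 (SE 0.08), opposite to Spns2. Dbp and Rpl18 share 13% and 8.97% of the exon bases of Sphk2, and with 10 ng/ml FSH21 and FSH24 Dbp was at 0.16 (SE 0.12) and 0.05 (SE 0.12) and Rpl18 at −0.61 (SE 0.09) and −0.67 (SE 0.09).

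Of the markers of other cells, 2 of 4 surface epithelium genes were tested, and the 4 summed to 70.4 to 74.2 CPM with 10 ng/ml FSH21 and 66.6 to 75.5 CPM with 10 ng/ml FSH24, against 29.8 to 43.4 CPM without FSH. With 1 ng/ml they summed to 49 to 55.6 CPM with FSH21 and 39.4 to 57.7 CPM with FSH24, against 31.9 to 39.9 CPM. With 10 ng/ml and in the controls of that dose the sum was nearly all Krt8, a keratin. Krt8 stood at 72 ± 1.96 CPM with 10 ng/ml FSH21 and 69.2 ± 4.85 CPM with FSH24, against 36.8 ± 7.31 CPM without FSH (SD, n = 3 each). It was called higher with both forms, at 0.97 (SE 0.12) and 0.91 (SE 0.12) on the log2 scale. The other 3 genes of the list, Upk3b, Lgr5 and Msln, were near 0, each averaging at most 0.464 CPM in these groups. At the lower dose Upk3b ranged from 0.363 to 3.627 CPM with 1 ng/ml FSH21 and from 0.259 to 19.5 CPM with 1 ng/ml FSH24. With 1 ng/ml FSH24 Msln reached 1.735 CPM and Lgr5 1.246 CPM. Upk3b was not called, and Lgr5 and Msln were too low to be tested. Theca markers, all 4 tested, summed to 1310 to 2100 CPM with 10 ng/ml FSH21 and 1360 to 2020 CPM with 10 ng/ml FSH24, against 1160 to 1520 CPM. Most of that sum was Hsd3b1, which was not called (log2 0.50 with FSH21 and 0.47 with FSH24), nor were Insl3 and Ptch1. Cyp17a1, which averaged 4.88 CPM with FSH21 and 4.55 CPM with FSH24, against 1.04 CPM without FSH, was called higher by 2.22 (SE 0.46) and 2.12 (SE 0.46). Granulosa markers, all 5 tested, summed to 5080 to 5310 CPM with FSH21 and 4660 to 4940 CPM with FSH24, against 3930 to 5350 CPM. Of these Foxl2 was called higher, by 0.56 and 0.43, and Amhr2, by 0.42 and 0.40, while Fshr was at −0.58 with FSH21 and −0.29 with FSH24 (SE 0.26 each) and, like Amh and Inha, not called. The 5 stroma and smooth muscle markers summed to 1570 to 2040 CPM with FSH21 and 1690 to 2390 CPM with FSH24, against 1690 to 2590 CPM, and none was called. The 5 oocyte markers summed to 2020 to 2280 CPM with FSH21 and 1970 to 2210 CPM with FSH24, against 2260 to 2450 CPM, and none was called. Endothelial markers, all 5 tested, overlapped, at 66.3 to 85.8 CPM with FSH21 and 71.1 to 82.8 CPM with FSH24, against 66.5 to 101 CPM. The part of these transcripts in the results for the S1P genes was not tested.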

How the data were processed

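Polyadenylated RNA was sequenced from whole follicles. The deposited values are expected counts per gene, 1 column per library with the 4 lanes merged, which is read from the column names as RSEM output. Per the submitters' processing notes, build mm10 and the tools STAR 2.7, bcl2fastq and FastQC were used. Annotation, RSEM version and strand setting are not given in the sources used here. Of the non-zero deposited counts, 33.9% were not whole (tolerance 0.001). Expected counts were rounded.

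Genes passing filterByExpr by group (minimum count 10) were fitted with edgeR 4.0.16 (R 4.3.3, TMM, robust quasi-likelihood, 18 libraries, 6 groups, no block), with Benjamini-Hochberg adjustment over all 18727. The SE is the fold change over the root of F, and intervals are 2 SE either side. Levels per kb divide CPM by GENCODE M21 exon bases, and positions are from it. The fit was tested on simulated data. Alternatives were DESeq2 1.42.0, RLE size factors, no filter, compared groups only, a replicate block on library number, and leaving out each library.

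The members and gene lists were chosen with earlier results of these data known. Named were all 9 members, pathway genes called in a comparison with untreated follicles, and the 5 genes most correlated with Sgpp2. Overlapping neighbours were added after the data were seen. Same-numbered libraries deviated together for 10 ng/ml FSH21 and its controls (correlations of deviations 0.126 to 0.206, each over 0.1), which the rule for pairing accepts. No other comparison met it for all 3 numbers. For 10 ng/ml FSH21, the SEs, calls and shares in the results come from a fit with no block, unless a block is named.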

Additional observations from a re-analysis of the deposited data

How the results depend on the processing

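Of 684 recomputed fold changes of the 9 members, those against untreated follicles all moved by less than 1 SD between replicates. With 3 libraries a group, leaving out 1 can hardly move a group mean by that much, so the limit says little for those fits. In the other comparisons only the call of each member was followed, and none changed. For Sgpp2 at 10 ng/ml the fold changes ran from −2.17 to −1.97 with FSH21 and from −2.09 to −1.77 with FSH24. For Spns2 they ran from 1.60 to 2.27 and from 1.72 to 2.13. Both genes were called in all 11 alternatives for each form. They were chosen with these contrasts known, so the repeated calls are no independent support. The replicate block left the called members as they were in every comparison with untreated follicles (3, 3, 1 and 0 members), and with it 2819 genes were called for 10 ng/ml FSH21. No other comparison met the rule for pairing at all 3 numbers (lowest same-number correlation 0.05). In all 18 pairs, though, the same-number correlation exceeded the highest with another number. The replicate block gave 2547 genes for 10 ng/ml FSH24 (1577 without the block), 226 for 1 ng/ml FSH21 (24 without it) and 177 between the forms at 1 ng/ml (2 without it). DESeq2 gave 111 genes for 1 ng/ml FSH21, 204 between the forms at 1 ng/ml, 5 between them at 10 ng/ml, and 1 each for 1 ng/ml FSH24 and for the untreated sets. Without a filter 59 genes were called for 1 ng/ml FSH21 and 65 between the low-dose forms. With only the compared groups fitted, which leaves fewer libraries, these became 1 and 0 genes, the members called with 1 ng/ml FSH21 became 0, and the pathway genes called with 10 ng/ml FSH24 became 2.

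Leaving out 1 library at a time gave 1262 to 1646 genes for 10 ng/ml FSH21 (lowest without untreated library 4) and 999 to 1427 for 10 ng/ml FSH24 (1042 without FSH24 library 2, 999 without library 4 and 1010 without untreated library 4). It gave 0 to 21 genes for 1 ng/ml FSH21 (2 and 0 without FSH21 libraries 1 and 5, 5 and 0 without untreated libraries 1 and 6), 0 to 1 for 1 ng/ml FSH24, 0 to 7 between the forms at 1 ng/ml, 0 to 1 between them at 10 ng/ml, and 0 to 1 between the untreated sets. Members called ranged from 0 to 1 for 1 ng/ml FSH21, and from 2 to 3 for 10 ng/ml of either form. Pathway genes called ranged from 3 to 4 for 10 ng/ml FSH21 and from 2 to 4 for 10 ng/ml FSH24. The cause of these changes was not tested. With 3 libraries a group and 24 to 33 counts of Spns2 in each untreated library of numbers 2, 3 and 4, its fold change is known less closely than that of Sgpp2 (SE 0.36 against 0.16).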
